A study of Homo sapiens with 10 samples.

Results

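Stathmins and neuronal cytoskeleton genes are taken here as 8 named genes, STMN1, STMN2, STMN3, GAP43, DCX, MAP2, MAPT and TUBB3, found by symbol among the 32152 genes of the count table. All 8 had counts in every library and all 8 passed the filter on low counts. They were followed in polyA RNA-seq of H9 (WAe009-A), a human embryonic stem cell line, in 5 wild-type (WT) libraries and 5 libraries of cells in which KCNH2 was edited. KCNH2 encodes hERG1, a voltage-gated potassium channel subunit. The titles and the growth protocol call the edited cells a knockout, while the genotype entry says knockdown. They are called KO here. All cells grew on Matrigel for at least 4 days to about 80% confluency, WT in TeSR-E8 and KO in mTeSR plus, so genotype and medium cannot be told apart in any value below. The titles give all KO libraries the same prefix, and how many edited clones they stand for is not stated in the labels.

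Stathmins bind tubulin dimers and keep them from joining a microtubule. STMN1 is the widely expressed member of the family, while STMN2 and STMN3 carry a membrane anchor and are known from neurons, where STMN2 sits in growth cones and the regrowing axon. GAP43 is a membrane phosphoprotein of growth cones. MAP2 and tau, the product of MAPT, bind along microtubules in dendrites and axons, doublecortin (DCX) binds them in migrating young neurons, and TUBB3 is the beta-tubulin isotype used as a neuron marker. Undifferentiated stem cells are not neurons, and low levels of several of these mRNAs are the starting point of the measurements here.

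Libraries ranged from 28615751 to 47319933 counts in depth. Levels are given as CPM, that is, per 1000000 counts of a library after TMM scaling. Where a gene had no count, up to 3 would still be compatible with it, a limit of 0.0620 to 0.102 CPM that covers counting error only. KCNH2 itself measured 11.2 to 13.2 CPM in KO and 14.7 to 16.4 CPM in WT. Its log2 fold change, KO against WT, was -0.35 with an SE of 0.061 (edgeR adjusted p = 6.48e-04), and the counts do not show which part of the gene was edited. Across 19163 tested genes, 46.0% passed an adjusted p of 0.05, 21.9% higher and 24.1% lower in KO. A share of members, or of any gene list below, near those values is the background. On the second principal component of log2 CPM, which held 28.3% of the variance, KO replicate 3 lay at -59.1 and WT replicates 3 and 2 at -32.2 and -10.1, against -2.26 to 35.8 in the others. Markers of pluripotent cells were high in every library, with a sum over 10 genes of 5706 to 6021 CPM in WT and 6560 to 7024 CPM in KO. Of 8 neural progenitor markers, 6 (PAX6, SOX1, HES5, DLX2, EMX2 and LHX2) were under 1 CPM in every library, and the sum was 5.78 to 7.09 CPM in WT and 4.85 to 6.12 CPM in KO. The labels do not say that replicates were separate cultures, so p-values measure the spread between these libraries, which may be technical. In bulk RNA, fewer cells of a type and less RNA per cell cannot be told apart.

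For 4 of the 6 members that changed, upstream bases outside annotated exons were taken at a start listed in RefSeq (GRCh38.p14). The chromosome of STMN2 was left out of the search, and the promoter set used held no entry for MAPT. These stretches are shown as sequence upstream of a listed start of each gene, which need not be the start in use. They end 186 (GAP43), 74 (TUBB3), 31 (MAP2) and 0 bases (DCX) before that start. Capitals mark matches to 5 short motifs. CANNTG is the E-box, bound by basic helix-loop-helix factors. TATAAA is the letter run of a TATA box and CCAAT that of a CCAAT box. CAGCACC is the left part of the RE1 element, which the repressor REST binds, and GGACAG is taken from its right part. Both strands were searched in the 250 bases before each start, and only the part outside GENCODE 29 exons is printed, 5′ to 3′ on the strand of the gene.
GAP43, chr3:115623260-115623323, plus strand, before the first annotated exon: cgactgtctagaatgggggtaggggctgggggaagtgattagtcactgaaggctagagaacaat
MAP2, chr2:209661246-209661464, plus strand, in an intron of longer transcripts: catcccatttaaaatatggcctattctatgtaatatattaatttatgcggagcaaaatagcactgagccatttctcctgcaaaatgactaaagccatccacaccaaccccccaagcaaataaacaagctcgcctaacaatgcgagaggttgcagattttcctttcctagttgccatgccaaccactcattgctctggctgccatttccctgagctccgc
DCX, chrX:111411147-111411396, minus strand, in an intron of longer transcripts: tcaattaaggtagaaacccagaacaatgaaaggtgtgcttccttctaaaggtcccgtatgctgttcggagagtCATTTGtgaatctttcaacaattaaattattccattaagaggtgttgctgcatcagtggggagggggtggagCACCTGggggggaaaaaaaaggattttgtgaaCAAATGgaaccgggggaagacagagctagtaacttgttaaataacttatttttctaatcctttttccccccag
TUBB3, chr16:89921675-89921850, plus strand, in an intron of longer transcripts: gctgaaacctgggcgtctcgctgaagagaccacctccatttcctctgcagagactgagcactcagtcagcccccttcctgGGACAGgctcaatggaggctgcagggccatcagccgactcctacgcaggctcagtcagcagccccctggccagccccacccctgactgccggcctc
The DCX window held 3 E-boxes and no match to the other motifs. GAP43 held 1 E-box, 1 CCAAT and 1 GGACAG in its 250 bases, all outside the printed part, TUBB3 held 1 GGACAG, and MAP2 held no match. Other listed starts differed, with 1 TATAAA before the first DCX start and 1 CCAAT before the second. Of the other MAP2 starts, 1 had 1 E-box and 1 CCAAT, and the next had 2 E-boxes. The other TUBB3 start had 1 CCAAT and no GGACAG. No matches overlapped. Over 34943 promoter windows of the same length, 61.8% held an E-box, 32.0% CCAAT, 17.2% GGACAG, 10.8% TATAAA and 6.16% CAGCACC. A match is a run of letters and not a binding site, and the start that these cells use was not measured.

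Among the stathmins, STMN2 (chromosome 8, 79610814 to 79666175, plus strand) rose 5.07-fold in KO, and STMN1 and STMN3 did not pass the test. STMN2 measured 13.2, 14.6, 16.3, 12.7 and 14.3 CPM in KO replicates 1 to 5 and 2.68, 2.997, 2.85, 2.46 and 3.03 CPM in WT replicates 1 to 5. Every KO library was above every WT library, and the highest was KO replicate 3. The group levels were 14.2 ± 1.39 CPM (SD, n = 5) in KO and 2.80 ± 0.24 CPM (SD, n = 5) in WT, and the fitted log2 difference was 2.34 with an SE of 0.085 (edgeR adjusted p = 3.28e-09). Among 19163 tested genes it was the 60th highest fold change, and 0.48% changed by more in either direction. These levels rest on 2504 counts in KO and 553 in WT. When edgeR asked for a change beyond 1 on the log2 scale, STMN2 alone of the members passed (adjusted p = 2.23e-07).

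STMN1 (chromosome 1, 25884181 to 25906991, minus strand) was the most abundant member. It measured 508, 493, 438, 470 and 492 CPM in KO replicates 1 to 5 and 458, 465, 464, 468 and 449 CPM in WT. KO replicate 3 was below all WT libraries while KO replicates 1, 2, 4 and 5 were above them. The log2 difference was 0.059 with an SE of 0.037 (edgeR adjusted p = 0.217), and without KO replicate 3 it was 0.091 with an adjusted p of 0.0202. STMN3 (chromosome 20, 63639705 to 63657682, minus strand) measured 72.7, 76.0, 67.1, 67.3 and 67.1 CPM in KO and 68.8, 77.4, 73.6, 80.6 and 70.0 CPM in WT. These ranges overlapped, and the log2 difference was -0.081 with an SE of 0.051 (edgeR adjusted p = 0.219). STMN4, the remaining family member, averaged 0.070 CPM in KO and 0.084 CPM in WT and was not tested.

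STMN2 made up more of the stathmin mRNA in KO, and STMN1 was most of it in every library. The shares were chosen after these values were seen. Per kilobase of the longest annotated transcript, STMN2 held 3.23 ± 0.44% of stathmin CPM in KO and 0.667 ± 0.065% in WT (SD, n = 5 each), a difference of 2.56 percentage points. STMN3 held 15.0 ± 0.63% in KO and 16.6 ± 0.75% in WT, and STMN1 held 81.8 ± 0.92% and 82.7 ± 0.71%. The STMN2 and STMN3 shares did not overlap between groups. No test is given, since the shares follow from the levels above, and a larger STMN2 share lowers the others by arithmetic. Per kilobase of all annotated exons, the differences were 4.52 points for STMN2 and -2.77 for STMN3.

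**Figure D1:**
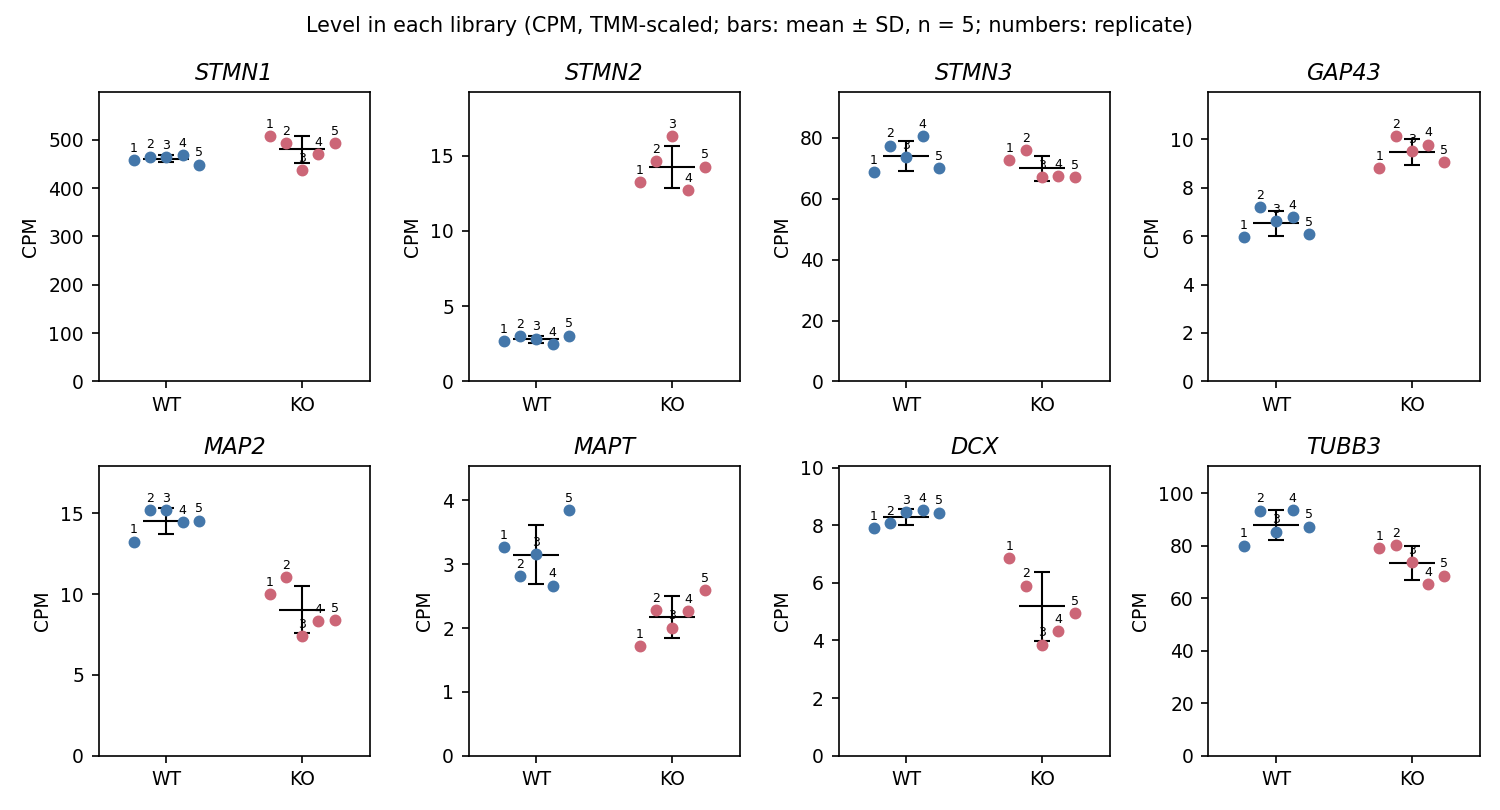
Level of each of the 8 genes in each library, in CPM on a linear axis from 0, for WT (blue) and KO (red). Points are libraries numbered by replicate and bars are the mean ± SD (n = 5). STMN2 and GAP43 lie higher in KO, MAP2, MAPT and DCX lower without overlap, and TUBB3 lower with KO replicate 2 just above WT replicate 1.

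GAP43 (chromosome 3, 115623324 to 115721490, plus strand) was the other member that rose. It measured 8.80, 10.1, 9.51, 9.78 and 9.06 CPM in KO replicates 1 to 5 and 5.97, 7.19, 6.61, 6.77 and 6.09 CPM in WT. The groups did not overlap. The means were 9.46 ± 0.54 and 6.53 ± 0.50 CPM (SD, n = 5 each), a 1.45-fold difference, or 0.53 on the log2 scale with an SE of 0.068 (edgeR adjusted p = 6.64e-05). The upstream stretch printed above lies directly before its first annotated exon.

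Growth cone genes around GAP43 moved in both directions. Of 15 tested genes of growth cones and axon outgrowth, 6 rose, GAP43 and STMN2 among them, while 5 fell. Of all tested genes, 21.9% were higher and 24.1% lower. The median log2 difference of the list was 0.055, and that of all tested genes was 0.0018. L1CAM, an axonal adhesion molecule, rose from 35.7 ± 1.99 to 48.3 ± 2.92 CPM (SD, n = 5 each; edgeR adjusted p = 3.25e-05). NCAM1, another neural adhesion molecule, fell from 10.5 ± 0.60 to 5.68 ± 0.56 CPM (edgeR adjusted p = 3.62e-06). BASP1, a growth cone protein with membrane effects like those of GAP43, rose by 0.15 on the log2 scale. Its relative MARCKSL1 fell by 0.11, and both were named after their values were seen. ATF3, an injury-response factor that was likewise picked for its values, stood at 26.8, 28.1, 61.1, 46.2 and 35.2 CPM in KO replicates 1 to 5 against 23.0 to 26.9 CPM in WT. Its KO values were highest in replicates 3 and 4, its lowest KO library lay within the WT range, and its edgeR adjusted p was 0.0193.

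MAP2, MAPT and DCX all fell, by 1.61-, 1.44- and 1.60-fold. MAP2 (chromosome 2, 209424058 to 209734118, plus strand) measured 10.01, 11.1, 7.42, 8.33 and 8.40 CPM in KO replicates 1 to 5 and 13.3, 15.2, 15.2, 14.5 and 14.6 CPM in WT. No KO library reached a WT library, and KO replicate 3 was the lowest. The log2 difference was -0.69 with an SE of 0.097 (edgeR adjusted p = 1.42e-04).

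DCX (chromosome X, 111293779 to 111412429, minus strand) was the most uneven member in KO. It measured 6.85, 5.90, 3.85, 4.33 and 4.96 CPM there, against 7.89, 8.06, 8.45, 8.51 and 8.44 CPM in WT. KO replicate 3 was again the lowest and replicate 1 the highest. The means were 5.18 ± 1.21 CPM in KO and 8.27 ± 0.28 CPM in WT (SD, n = 5 each), and the log2 difference was -0.68 with an SE of 0.13 (edgeR adjusted p = 0.00134). Leaving out 1 library at a time moved it between -0.79 and -0.59.

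MAPT (chromosome 17, 45894382 to 46028334, plus strand) was the least abundant member in KO, with 385 counts there and 612 in WT. In WT, STMN2 was lower, with 553 counts. It measured 1.71, 2.28, 2.01, 2.27 and 2.59 CPM in KO and 3.26, 2.81, 3.16, 2.66 and 3.84 CPM in WT. The groups lay close but did not overlap, with 2.59 CPM the highest in KO and 2.66 CPM the lowest in WT. The log2 difference was -0.53 with an SE of 0.13 (edgeR adjusted p = 0.00626). MAPT-AS1, an antisense gene that shares exonic bases with MAPT, held 41 counts over all 10 libraries. Whether the counting used strand is not stated, so reads of the pair cannot be told apart.

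MAP2, MAPT and DCX are also the longest members. Their longest transcripts hold 9711, 6816 and 9405 bases, against 1901 to 2947 bases for the other 5 members. When each library was corrected for a trend of log2 CPM on transcript length and GC, the log2 fold change was -0.54 for MAP2 (edgeR adjusted p = 0.00126), -0.53 for DCX (0.00746) and -0.37 for MAPT (0.0340). When the correction used the length of all annotated exons, MAPT stood at -0.34 with an adjusted p of 0.0484. All 3 calls remained, and STMN2 and GAP43 were at 2.23 and 0.44 after the first correction.

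Of 20 tested microtubule-associated proteins, 11 fell and 3 rose. That is 55.0% lower, beside 24.1% of all genes, with a median log2 difference of -0.18. The 11 include MAP2, MAPT and DCX. After the correction for transcript length, 8 fell and 4 rose, and without KO replicate 3, WT replicate 2 and WT replicate 3, 9 fell and 2 rose. No test of the list was made. CRMP1, a collapsin response mediator of axon guidance, fell from 167 ± 4.65 to 128 ± 8.75 CPM (SD, n = 5 each; edgeR adjusted p = 3.17e-05). DCLK1, a doublecortin relative, fell from 20.8 ± 0.61 to 15.9 ± 1.49 CPM (edgeR adjusted p = 2.25e-04).

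Some of the largest falls in that list ran through the KO libraries in a similar order to DCX. MAP6, a microtubule stabiliser of neurons, measured 2.15, 2.14, 1.59, 1.71 and 1.97 CPM in KO replicates 1 to 5 and 2.78 to 3.98 CPM in WT. DPYSL5, a relative of CRMP1 named after its values were seen, measured 17.6, 17.1, 9.09, 11.3 and 13.8 CPM in KO and 22.9 to 25.9 CPM in WT. Both were lowest in KO replicate 3, then 4 and 5, and highest in replicates 1 and 2, as was DCX. Not all of the list fell: DPYSL3 rose from 684 ± 16.8 to 766 ± 27.3 CPM (edgeR adjusted p = 7.59e-04). The broadly expressed MAP4 rose by 0.096 on the log2 scale (edgeR adjusted p = 0.0142). DPYSL3 and MAP4 were also named after their values were seen.

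**Figure D2:**
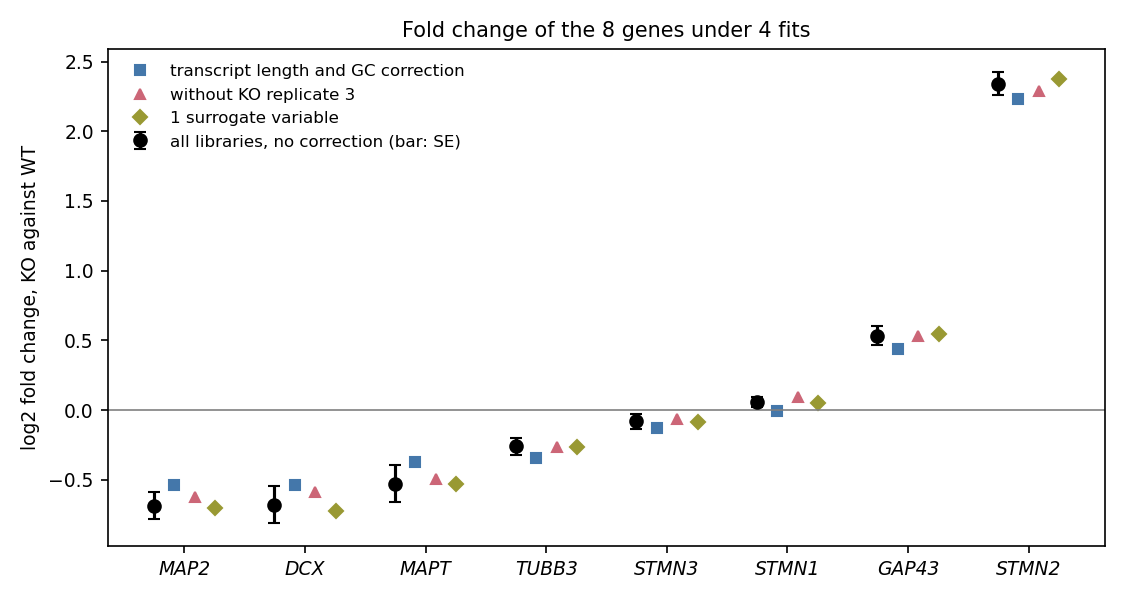
Log2 fold change of KO against WT for the 8 genes, ordered by size, from the fit of all 10 libraries (black circles, bars are SE), after correction for transcript length and GC (squares), without KO replicate 3 (triangles) and with 1 surrogate variable (diamonds). STMN2 stands near 2.3 in all 4 fits, and STMN1 lies at or near 0.

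TUBB3 (chromosome 16, 89921392 to 89938761, plus strand) fell 1.20-fold, from 87.9 ± 5.72 CPM in WT to 73.4 ± 6.47 CPM in KO (SD, n = 5 each). It measured 79.1, 80.2, 73.8, 65.3 and 68.6 CPM in KO replicates 1 to 5, against 80.0, 93.4, 85.3, 93.5 and 87.3 CPM in WT. The groups met only where KO replicate 2 lay above WT replicate 1. The log2 difference was -0.26 with an SE of 0.062 (edgeR adjusted p = 0.00477), and -0.34 after the correction for transcript length and GC (adjusted p = 0.00101). A readthrough gene that shares exonic bases with TUBB3 held 24 counts over all libraries.

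Other tubulins moved in both directions. Of 12 tested isotypes, 7 rose and 3 fell, beside 21.9% and 24.1% of all tested genes. Their median log2 difference was 0.14. With the replicate block 5 rose and 3 fell, and without both replicate 3 libraries 6 rose and 3 fell. Those that fell were TUBB3, TUBA1A, an alpha-tubulin of developing neurons, and TUBB4A, an isotype of brain, the last 2 named after their values were seen. TUBA1A measured 365 ± 10.4 CPM in WT and 301 ± 27.8 CPM in KO, and TUBB4A 28.8 ± 1.16 and 23.7 ± 2.07 CPM (edgeR adjusted p = 0.00141 and 0.00190). TUBB2A rose from 138 ± 4.50 to 187 ± 26.8 CPM and TUBB2B from 475 ± 7.13 to 560 ± 24.5 CPM, both also known from neurons (edgeR adjusted p = 8.78e-04 and 7.62e-05). TUBB4B rose by 0.18 and TUBG1, the gamma-tubulin of microtubule nucleation, by 0.25. Tubulin coding sequences are close to each other, so reads may be shared between isotypes.

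TUBB3 made up less of the beta-tubulin mRNA in KO. Per kilobase of the longest transcript, its share was 2.61, 2.56, 2.28, 2.09 and 2.21% in KO replicates 1 to 5 and 2.86, 3.20, 2.92, 3.24 and 3.03% in WT. The groups did not overlap, and the means of 2.35 ± 0.23% and 3.05 ± 0.17% (SD, n = 5 each) differed by -0.70 points, given as a description with no test. Per kilobase of all annotated exons the difference was -0.37 points. TUBB, the main isotype, held 57.5 ± 1.33% in KO, and TUBB2B held 17.5 ± 0.36% in KO and 16.1 ± 0.20% in WT.

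**Figure D3:**
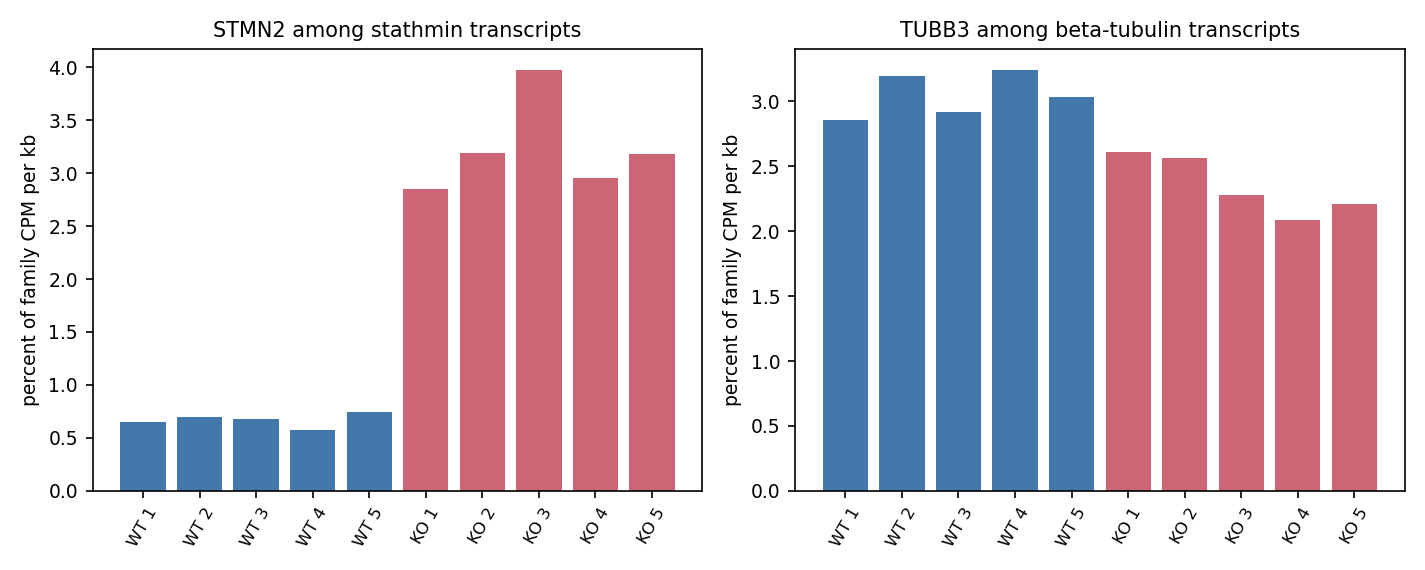
Share of STMN2 in the CPM per kilobase of STMN1 to STMN4 (left) and of TUBB3 in that of 7 beta-tubulin genes (right), in percent, 1 bar per library, WT in blue and KO in red, with axes from 0. STMN2 runs from 0.570 to 0.743% in WT and from 2.85 to 3.97% in KO, and TUBB3 from 2.86 to 3.24% and from 2.09 to 2.61%.

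Levels were set in order per kilobase of the longest transcript. In WT, STMN1 stood at 156 ± 2.65 CPM per kb, TUBB3 at 44.4 ± 2.89 and STMN3 at 31.5 ± 2.11 (SD, n = 5 each). GAP43 followed at 3.43 ± 0.26, MAP2 at 1.5 ± 0.081, STMN2 at 1.26 ± 0.11, DCX at 0.879 ± 0.029 and MAPT at 0.462 ± 0.068 CPM per kb. In KO the order was STMN1 (163 ± 9.22), TUBB3 (37.1 ± 3.27), STMN3 (29.8 ± 1.74), STMN2 (6.4 ± 0.62), GAP43 (4.97 ± 0.28), MAP2 (0.931 ± 0.15), DCX (0.551 ± 0.13) and MAPT (0.319 ± 0.048). STMN2 passed MAP2 and GAP43 between WT and KO, and the other 7 kept their order among themselves. With this length, in neither group did the intervals of 1 SD around neighbours in these orders meet. Per kilobase of all annotated exons, MAP2 and STMN2 lay closer in WT, at 1.26 and 1.19 CPM per kb. Per kilobase of all annotated exons, STMN3 lay above TUBB3 in both groups, at 24.4 and 19.8 CPM per kb in WT and 23.1 and 16.6 in KO, since TUBB3 has 4430 exonic bases but a longest transcript of 1978.

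Of the 8 members, 6 passed the test, 2 higher and 4 lower, which is 75.0% against 46.0% of all tested genes. Members with groups that did not overlap were 5 of 8 (62.5%), against 34.0% of all genes. With a size over 0.5 on the log2 scale there were 5 of 8, against 11.8%. The median log2 difference of the members was -0.17. Since the genes were chosen with earlier results of these data known, these counts are a description. The authors' deposited table gives the same signs, with log2 fold changes of 2.20 for STMN2, 0.52 for GAP43, -0.64 for MAP2, -0.60 for DCX, -0.45 for MAPT, -0.24 for TUBB3, 0.07 for STMN1 and -0.07 for STMN3. These are no independent measurement, as they come from the same counts.

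Of 17 tested proteins of microtubule plus ends, depolymerisation and severing, STMN2 included, 5 rose, 3 fell and 9 did not pass. Their median was -0.066 on the log2 scale, and 21.9% of all tested genes rose and 24.1% fell. The median was 0.038 after the correction for transcript length and 0.027 after that for exonic length. Without KO replicate 3, WT replicate 2 and WT replicate 3, 2 rose and 3 fell. KIF2A, a depolymerising kinesin known from neuronal migration, fell from 63.6 ± 2.87 to 47.04 ± 3.74 CPM (SD, n = 5 each; edgeR adjusted p = 6.13e-05). MAPRE2 fell by 0.17, and CLASP2 by 0.15 on the log2 scale, the latter not past the threshold after either length correction. STMN2 was the only gene of that list with a change over 0.5 on the log2 scale. Of 14 kinases that act on tau, stathmin or other microtubule-associated proteins, 4 rose and 3 fell (median 0.062), and after the correction for transcript length 8 rose and 2 fell. Without KO replicate 3, WT replicate 2 and WT replicate 3, 1 rose and 2 fell. Of all 19438 genes tested in that fit, 3596 were higher and 3598 lower. MAPK10, the neuronal JNK, fell from 4.98 ± 0.16 to 3.74 ± 0.25 CPM, MAPK8 fell by 0.17, and MARK3 and MARK2, kinases of tau, rose by 0.16 and 0.19. MAPK8 was not called after the correction for exonic length and GC, nor MARK2 without both replicate 3 libraries or without KO replicate 3, WT replicate 2 and WT replicate 3.

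Of 19 tested genes known as targets of REST, which represses neuronal genes outside neurons, 8 rose and 5 fell, beside 21.9% and 24.1% of all genes. The median log2 difference was 0.17. Without KO replicate 3, WT replicate 2 and WT replicate 3, 6 rose and 4 fell with a median of 0.074, and after the correction for transcript length 8 rose and 3 fell. STMN2, TUBB3 and STMN3 are in that list. REST mRNA, chosen after its level had been looked at, measured 35.9 ± 1.23 CPM in KO and 35.1 ± 2.36 CPM in WT (edgeR adjusted p = 0.574). CHGA, a secretory granule protein, fell from 197 ± 12.0 to 121 ± 4.83 CPM and CELSR3, an axon guidance cadherin, fell by 0.23, a call not kept after either length correction. VGF, a neuropeptide precursor picked for its values, stood at 16.1, 18.2, 49.3, 35.2 and 28.7 CPM in KO and 9.88 to 11.5 CPM in WT, highest in KO replicates 3 and 4. Of 8 genes of REST and its corepressors, 3 rose and 3 fell. SIN3A fell by 0.36, RCOR2 rose by 0.23, HDAC1 rose by 0.12 and KDM1A fell by 0.067 on the log2 scale. The KDM1A call was lost in 13 of 21 alternative fits. With DESeq2 size factors, the replicate block, either length correction or KO replicate 3 left out, 1 gene of the list fell.

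Markers of mature neurons moved in both directions. Of 10 markers, 9 were tested, with 4 higher and 1 lower, or 1 and 1 without both replicate 3 libraries. In the fit of all libraries, 21.9% of tested genes were higher and 24.1% lower. SNAP25 and ELAVL4 were under 1 CPM in every library. The sum over the 10 was 138 to 144 CPM in KO and 134 to 140 CPM in WT, ranges that overlapped. NEFL, a neurofilament subunit, rose from 11.2 ± 0.57 to 13.5 ± 1.34 CPM (SD, n = 5 each; edgeR adjusted p = 0.00774), while RBFOX3, the neuronal nuclear antigen NeuN, fell by 0.18. After the correction for exonic length and GC, RBFOX3 stood at -0.041 (edgeR adjusted p = 0.471) and 0 markers were lower. SYN1 and ELAVL3 rose by 0.18 and 0.62, and neither was called without both replicate 3 libraries. SYN1 was also not called without KO replicate 5, nor ELAVL3 without KO replicate 3 or without WT replicate 2. Of 5 tested intermediate filament genes, NEFL and NEFH rose and 0 fell, with NEFH up from 4.60 ± 0.24 to 6.14 ± 0.35 CPM, and NEFM, INA and NES did not pass.

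Of 10 tested RNA-binding proteins known for neuronal transcripts, 3 rose and 4 fell, beside 21.9% and 24.1% of all tested genes. Without KO replicate 3, 1 rose and 3 fell. TARDBP, whose product TDP-43 is known to keep a cryptic exon out of STMN2 mRNA, rose from 297 ± 7.97 to 343 ± 6.11 CPM (SD, n = 5 each; edgeR adjusted p = 5.04e-05). RBFOX2 fell from 194 ± 3.17 to 164 ± 5.74 CPM and NOVA2 from 22.1 ± 0.93 to 17.5 ± 2.40 CPM, the second not past the threshold after either length correction. Counts per gene cannot separate isoforms, so splicing of STMN2 was not analysed here.

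Of 18 listed transcription factors of neurogenesis, 5 had enough counts to be tested, and those below the filter included NEUROG2, NEUROD1, POU3F2 and ISL1, each averaging under 0.12 CPM in both groups. NHLH2, a basic helix-loop-helix factor of developing neurons, stood at 9.17, 11.0, 11.2, 9.81 and 11.4 CPM in KO replicates 1 to 5 and 1.01, 0.951, 0.756, 0.955 and 0.817 CPM in WT. The groups lay far apart, with a fold of 11.7, or 3.54 on the log2 scale with an SE of 0.10 (edgeR adjusted p = 4.73e-10). MYT1, a zinc finger factor, fell from 2.88 ± 0.36 to 1.94 ± 0.29 CPM (edgeR adjusted p = 0.00313). NHLH1, at 0.60 CPM in WT and 0.40 in KO, had an adjusted p of 0.0478, lost in 16 of 20 alternative fits.

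**Figure D4:**
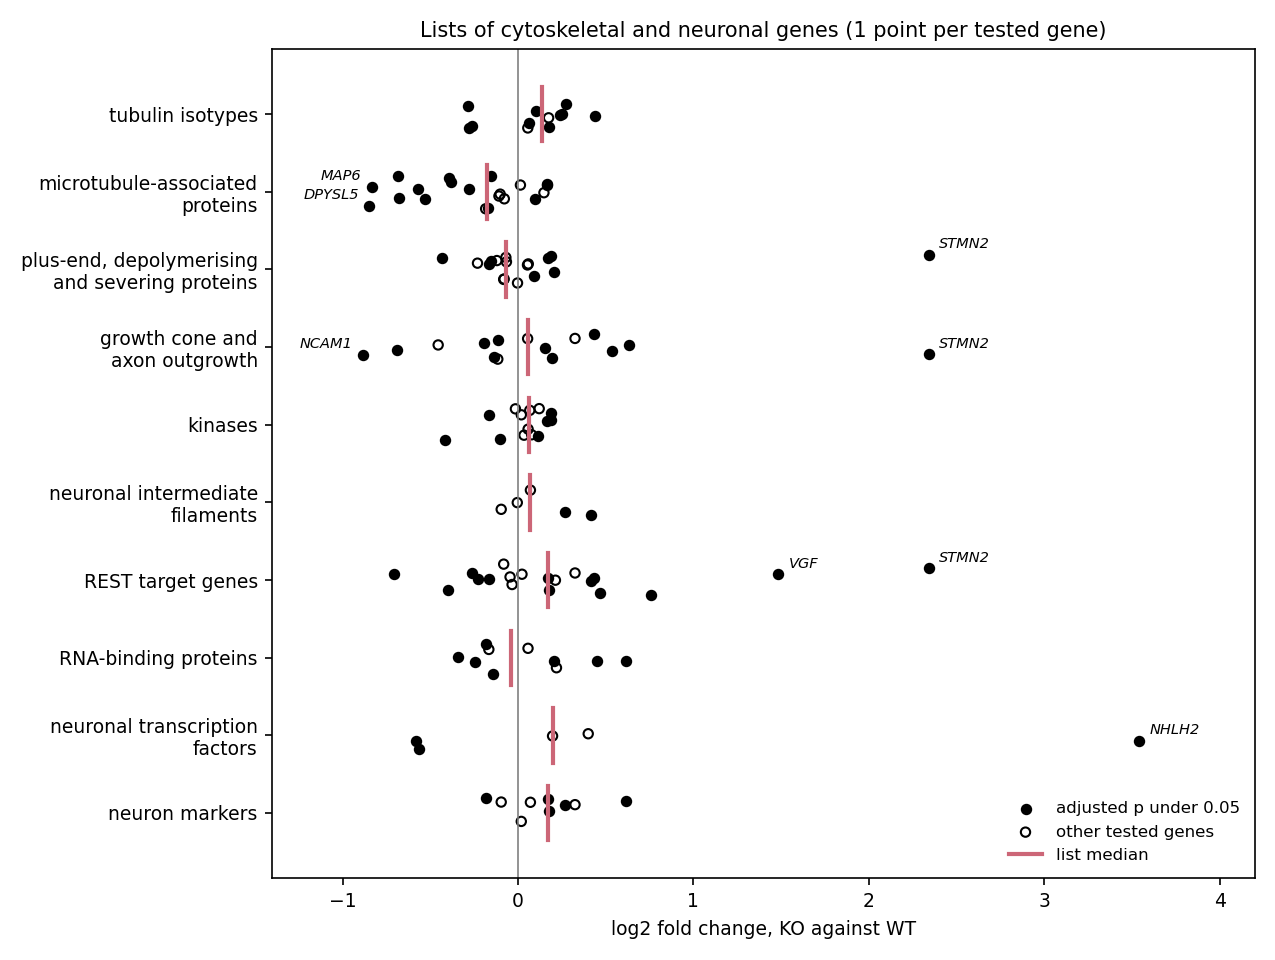
Log2 fold change of KO against WT (horizontal axis) for each tested gene of 10 lists (rows), with filled points for an adjusted p under 0.05, open points for other genes and a red line at each list's median. Genes past 0.8 in size are named. STMN2 (2.34) appears in 3 lists and lies far to the right of the other microtubule and growth cone genes, as NHLH2 (3.54) does among transcription factors.

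Markers of other cell types were set beside these values. The shares of all tested genes were 21.9% higher and 24.1% lower. Among markers of neural crest and glia, SOX10 measured 4.07 ± 0.73 CPM in KO and 2.94 ± 0.39 CPM in WT (SD, n = 5 each; edgeR adjusted p = 0.0132), and NGFR fell by 0.58 on the log2 scale. Of 4 tested fibroblast markers, COL1A1, COL1A2 and POSTN fell by 0.52, 0.74 and 0.66, and the POSTN call was lost in 9 of 20 alternative fits. POSTN and COL3A1 were under 1 CPM in every library. The fibroblast sum was 809 to 936 CPM in KO and 930 to 1006 CPM in WT. Of 10 tested pluripotency markers, 5 rose and 0 fell, or 4 and 1 after the correction for exonic length, POU5F1 by 0.30 and NANOG by 0.28 among them. The part of these genes in the members' values was not tested.

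The genes with profiles most like a member over the 10 libraries were of varied kinds. Likeness was the root mean square difference between log2 CPM profiles, each centred on its own mean, over 14636 genes of at least 1 CPM. For STMN2 the nearest were MT1F, a metallothionein, at 0.175, TMEM64 at 0.195 and OPTN, an autophagy receptor, at 0.226. MT1F measured 11.1 ± 1.47 CPM in KO and 2.06 ± 0.29 CPM in WT (SD, n = 5 each). For DCX they were MYLIP (0.0532), SELENOP (0.0664) and TRIL (0.0695), and for MAP2 they were DCHS1 (0.0571), C1orf116 (0.0627) and the collagen gene COL1A2 (0.0643). For GAP43, EMG1 was nearest (0.0634), for TUBB3, SNX1 (0.0367), and for MAPT, SLC5A2 (0.0982). For STMN1 it was HMGN1 (0.0246) and for STMN3 it was SETD6 (0.0295). No other member was among the 3 nearest of any member.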

How the data were processed

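PolyA RNA of 10 H9 libraries was read with 150 paired-end cycles, per the labels' protocols. The authors deposited raw counts per gene. Build hg38, DESeq2 and R 3.6.3 appear in the submitters' processing notes. No aligner, counter, annotation or strand setting is named in the sources used here. The authors' deposited comparison table holds a mean normalised signal, log2 fold changes and their standard errors, a score that is their quotient, and p-values, and served for symbols and as a side value. The members and the gene lists were chosen with earlier results of these data known.

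The test was the quasi-likelihood F test of edgeR 4.0.16 (R 4.3.3) between the groups, after filterByExpr and TMM scaling. Its p-values were adjusted by Benjamini-Hochberg across all 19163 tested genes and called at 0.05. The log2 CPM values used a prior count of 2. Libraries of a group differed beyond counting noise (chi-square over its degrees of freedom 3.59 to 26.2), so none was merged. Positions, lengths and GC are from GENCODE 29 (GRCh38, the assembly also called hg38), matched for 31146 of 32152 genes. RefSeq promoters were taken for 6 members, with the chromosome of STMN2 left out and no entry for MAPT in the set used. The isotype shares were computed in Python 3.11.15 (numpy 2.4.6) and are given with no test. Named genes are the members, up to 4 per list with the smallest p, and 3 genes nearest in profile to each member. Others picked from the lists are marked as named after their values were seen. NES, TUBB and SNAP25, also outside this rule, carry no such mark. Some listed genes, and the neural crest and glia list as a whole, are not reported here.

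Alternatives were DESeq2 1.42.0 size factors and Wald test, limma 3.58.1 voom, no filter, 1 CPM in 5 libraries, blocking on the replicate number, an edgeR test for changes beyond 1 on the log2 scale, each library left out, both replicate 3 libraries out, KO 3 with WT 2 and WT 3 out, 1 surrogate variable (sva 3.50.0) and a length and GC correction (natural splines, 5 degrees of freedom). Exonic length and the isotype shares with their alternatives were added after seeing the data. The fit was tested on simulated counts.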

Additional observations from a re-analysis of the deposited data

How the results depend on the processing

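Genes called in KO were 4201 higher and 4615 lower. When a change beyond 1 on the log2 scale was required they were 83 and 93, and members went from 2 higher and 4 lower to 1 and 0. GAP43 (0.53), DCX (-0.68), MAP2 (-0.69), MAPT (-0.53) and TUBB3 (-0.26) did not pass that test, by its stricter construction. In the other 21 alternatives these 5 genes and STMN2 kept direction and call. STMN1 passed without KO replicate 3 (0.091) and without both replicate 3 libraries (0.093), and stood at -0.0044 after the correction for transcript length and GC (adjusted p = 0.936). Its range with 1 library left out was 0.049 to 0.091, and the cause was not tested. Replicate numbers are not stated to pair the libraries, and 5 libraries per group cannot settle it. Same-numbered deviations correlated at -0.157 to 0.698, and 1 of 5 KO libraries, replicate 3 at 0.698, correlated best with its own number. With the replicate block 4258 genes were higher and 4300 lower, and the members' calls were the same. After the transcript length correction 4386 genes were higher and 4240 lower, and after that for exonic length 4543 and 4279. Calls were 4111 and 4403 of 19340 without KO replicate 3, and 3818 and 4012 of 19186 without both replicate 3 libraries. Without KO 3, WT 2 and WT 3 they were 3596 and 3598 of 19438. List counts from those fits are to be read beside these. For 50 other named genes, 967 of 1096 alternative values had the same direction and side of the threshold. THY1 and OTX1, both near 0 and not called, changed sign. THY1 went to -0.0017 with limma voom, -0.0033 with 1 CPM in 5 libraries, -0.0019 with the replicate block, -0.0094 without both replicate 3 libraries and -0.0051 without KO 3, WT 2 and WT 3, and ran from -0.0253 to 0.0553 with 1 library left out. OTX1 went to -0.0212 without KO 3, WT 2 and WT 3 and ran from -0.0471 to 0.0529 with 1 library left out. Depth limits MAPT most, at 51 to 142 counts per library.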

Other observations

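Neighbouring genes were examined after the members' values had been seen, as the 3 nearest tested protein-coding genes on each side. Around DCX on the X chromosome all 6 were lower in KO: CHRDL1 by 0.40, PAK3 by 0.53, CAPN6 by 0.57, SERTM2 by 1.3, ALG13 by 0.27 and TRPC5 by 0.92 on the log2 scale (edgeR adjusted p from 3.43e-06 to 0.00228). PAK3, a kinase of dendritic spines, averaged 10.4 CPM in KO and 15.0 CPM in WT, and SERTM2 averaged 2.22 and 5.49 CPM. With 10 genes on each side, a stretch of 9.38 Mb, 11 of 20 were lower and 3 higher. Over the whole X chromosome 161 of 550 tested protein-coding genes were lower (29.3%) and 157 higher (28.5%), against 26.3% and 25.8% on the other chromosomes.

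Over all 8 members, 14 of 48 neighbours were lower and 7 higher, the 6 around DCX among the lower. Off the X chromosome, 26.3% of tested protein-coding genes were lower and 25.8% higher. With 10 genes on each side, 8 of 20 were lower around GAP43 and around MAP2, and 3 of 20 around STMN2 and around MAPT. Whether neighbours moved together more than other genes do was not tested. Around STMN2, 2 of the 6 nearest were higher, MRPS28 by 0.29 and TPD52 by 0.23 on the log2 scale, and HEY1, at 97.8 kb the closest, stood at -0.022 (edgeR adjusted p = 0.906). GAP43 rose while LSAMP, its next tested gene and a neuronal adhesion molecule, fell by 0.64 (edgeR adjusted p = 1.59e-04). UNC80, next to MAP2, fell by 0.77. MC1R and DEF8, on either side of TUBB3, stood at -0.0037 and -0.018 (adjusted p = 0.984 and 0.708).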
